A study of Mus musculus with 11 samples.

Results

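Fatty acid oxidation and ketogenesis were followed through mouse liver development in 7 genes, Cpt1a, Cpt2, Acadm, Acadl, Ehhadh, Bdh1 and Fgf21, of 27962 gene names on the array. The members were taken by symbol from the gene column of the array files, without the control spots, and every probe of each gene was used. They were measured by 10 of 41174 distinct probes, and all 7 genes were among the 16702 genes tested. RNA from normal mouse liver was hybridised at 4 stages on 11 arrays with 2 colours, with 3 arrays at embryonic day 14 (E14), 3 at embryonic day 18 (E18), 2 at postnatal day 5 (P5, replicates 2 and 3) and 3 at postnatal day 56 (P56). Liver RNA carried Cy5 on every array, and commercial RNA of normal adult mouse liver carried Cy3 as a common reference, with no dye swap. No group carried an engineered allele or received an agent in the labels, and strain and feeding state are not given there. The labels name liver as the source of each sample but also give cell types (hepatoblasts at E14, immature hepatocytes at E18), and the methods speak of both whole livers and isolated cells, so which of them an embryonic array holds is not settled here. Replicates are labelled as biological. The comparisons ask how the expression of these genes differed between successive stages.

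Values are log2(liver / adult reference), called log2 ratios below, after background correction and loess normalization within each array. A log2 ratio of 0 is the level of the reference, and a difference of 1 is a 2-fold change. Spots well above background in Cy5 numbered 20131 to 25718 on 10 arrays and 16790 on P56 replicate 2. Replicates correlated at r = 0.965 to 0.989 over probes at the embryonic stages, at 0.895 at P5 and at 0.825 to 0.934 at P56. On all 11 arrays each member had at least 1 probe well above the Cy5 background, and no member probe was saturated. The Cy3 signal of the 7 main probes spanned 0.17 to 0.60 on the log2 scale over the arrays, against 1.89 to 3.799 in Cy5. Each stage has 2 or 3 arrays, which limits the precision. Some values also depended on the probe and on the processing, as given below.

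Long-chain fatty acids enter mitochondria as carnitine esters and are shortened there by beta-oxidation, while peroxisomes shorten very long chains and dicarboxylic acids. In the liver much of the resulting acetyl-CoA is turned into ketone bodies, which other organs burn. The pathway is known for its induction around birth, when milk fat replaces placental glucose, and for its control by the nuclear receptor PPAR-α, which binds DNA together with RXR-α.

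Between E14 and E18, 6 of the 7 genes rose, by 1.77-fold (Cpt2) to 7.66-fold (Acadm), and Fgf21 did not pass the test. Between E18 and P5, 6 rose again, and here Acadm was the gene that did not pass. Between P5 and P56, 5 fell, by 1.94-fold (Acadm) to 3.11-fold (Bdh1). Cpt1a, Ehhadh, Bdh1 and Acadl were higher at P5 than at both E18 and P56, with an adjusted p under 0.05 each time, from limma after adjustment over all genes by Benjamini and Hochberg. With the methods' t-test, which takes the spread of each gene from the 5 arrays compared, 0 members passed after the same adjustment for P5 against E18 or for P56 against P5 (adjusted p = 0.053 to 0.27 for the members called by limma), so 0 then met the peak at P5. P5 has 2 arrays, and wherever 1 of them is left out below, the lone P5 array is assumed to vary like the other stages, from which the spread then comes.

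Cpt1a encodes the liver form of carnitine palmitoyltransferase 1 on the outer mitochondrial membrane, the controlled step of long-chain entry. Its main probe lies on chromosome 19 at 3280180 to 3280239 (mm7, plus strand) and was printed in 10 spots, whose log2 ratios had an SD of 0.06 to 0.17 within an array. Log2 ratios were -3.07, -3.25 and -3.25 at E14 and -1.68, -1.67 and -1.59 at E18. They reached -0.37 and -0.56 at P5 and stood at -1.52, -1.82 and -1.41 at P56. The P5 arrays lay above all others and the E14 arrays below all others, while the E18 and P56 arrays overlapped. Cpt1a rose by 1.54 ± 0.11 (log2 fold change ± SE, adjusted p = 6.8e-07) from E14 to E18 and by 1.18 ± 0.13 (adjusted p = 0.00018) from E18 to P5. It fell by 1.11 on the log2 scale from P5 to P56 (SE 0.13, adjusted p = 3.4e-05).

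Cpt2, on the inner membrane, hands the fatty acid back to coenzyme A in the matrix. Its single probe lies on chromosome 4 at 107280457 to 107280517 (mm7, minus strand). Its log2 ratios were -2.14, -2.02 and -1.84 at E14, -1.02, -1.22 and -1.29 at E18, 0.00 and -0.41 at P5, and -0.23, -1.10 and -0.81 at P56. E14, E18 and P5 did not overlap, and the P56 arrays overlapped both E18 and P5. Cpt2 rose by 0.82 ± 0.20 from E14 to E18 (adjusted p = 0.0044) and by 0.97 ± 0.22 from E18 to P5 (adjusted p = 0.013). The first call was lost under median centring (adjusted p = 0.088) and in the Cy5 channel alone (0.11), and the second without P5 replicate 2 (0.056) or E18 replicate 3 (0.051), in the authors' table (0.064) and with the t-test (0.16). P56 was 0.51 ± 0.22 below P5 on the log2 scale, which did not pass (adjusted p = 0.077). Without P56 replicate 1 that difference was -0.75 (adjusted p = 0.0035), and without P5 replicate 3, with a lone P5 array, it was -0.71 (0.041).

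Acadm encodes the medium-chain acyl-CoA dehydrogenase, which takes the first oxidation step for chains of middle length. Its probe lies on chromosome 3 at 153833272 to 153833331 (mm7, minus strand). Log2 ratios of Acadm were -2.43, -2.66 and -2.54 at E14 and 0.40, 0.44 and 0.34 at E18, moving to 0.07 and 0.01 at P5 and to -0.54, -1.34 and -0.86 at P56. E18 was the highest stage, with an average of 132% of the adult reference, where Cpt1a, Cpt2, Acadl, Ehhadh and Bdh1 had their highest mean at P5. The E14 to E18 rise of 2.94 ± 0.16 (adjusted p = 5.4e-08) was the greatest among the 7 genes. P5 stood 0.35 ± 0.18 below E18 on the log2 scale with no overlap of the arrays, but this did not pass (adjusted p = 0.22), and Acadm fell by 0.95 on the log2 scale from P5 to P56 (SE 0.18, adjusted p = 0.0011).

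Acadl, the long-chain acyl-CoA dehydrogenase, had its probe on chromosome 1 at 67070807 to 67070866 (mm7, minus strand). It gave log2 ratios of -0.75, -0.80 and -0.67 at E14, 1.36, 1.02 and 1.104 at E18, 1.83 and 1.497 at P5, and 0.48, 0.23 and 0.44 at P56. It was the one member above the adult reference on all arrays from E18 onwards, at a mean of 317% of it at P5. Acadl rose by 1.91 ± 0.12 from E14 to E18 (adjusted p = 1.8e-07). The further rise of 0.50 ± 0.14 to P5 (adjusted p = 0.031) lost its call without E18 replicate 2 (0.10), E18 replicate 3 (0.098) or P5 replicate 2 (0.14). It was also lost under median centring (0.084), in Cy5 alone (0.087), in the authors' table (0.082), in the fit to E18 and P5 alone (0.088), with the scan as a random block (0.053) and with the t-test (0.27). From P5 to P56 it fell by 1.28 on the log2 scale (SE 0.14, adjusted p = 1.7e-05).

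Ehhadh encodes the peroxisomal bifunctional enzyme, which carries out the hydration and the second oxidation of peroxisomal beta-oxidation. Its probe lies on chromosome 16 at 21411280 to 21411339 (mm7, minus strand). Values were -2.79, -3.29 and -2.86 at E14 (log2 ratio), -0.98, -0.90 and -0.71 at E18, 0.62 and 0.25 at P5, and -0.64, -1.03 and -0.81 at P56. As for Cpt1a, the P5 arrays were above and the E14 arrays below all others, and the ranges of E18 and P56 overlapped. The changes were 2.12 ± 0.16 from E14 to E18 (adjusted p = 6.3e-07), 1.30 ± 0.18 from E18 to P5 (7e-04) and -1.27 ± 0.18 from P5 to P56 (0.00013), on the log2 scale.

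Bdh1 encodes the mitochondrial 3-hydroxybutyrate dehydrogenase, which interconverts the ketone bodies acetoacetate and 3-hydroxybutyrate. Its brighter probe lies on chromosome 16 at 31131721 to 31131780 (mm7, plus strand). Log2 ratios there were -2.15, -2.29 and -2.07 at E14, -0.69, -0.80 and -0.81 at E18, 0.30 and 0.26 at P5, and -1.16, -1.54 and -1.37 at P56. Arrays of the 4 stages did not overlap, in the order P5, E18, P56, E14. Bdh1 rose by 1.40 ± 0.11 (adjusted p = 9.1e-07) and by 1.05 ± 0.12 (0.00025) up to P5 and then fell by 1.64 on the log2 scale to P56 (SE 0.12, adjusted p = 1e-06), the steepest fall among the members.

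Fgf21 encodes a hormone that the fasting liver secretes and that PPAR-α induces, and it had no called rise before birth. On its brighter probe, on chromosome 7 at 41790029 to 41790088 (mm7, minus strand), log2 ratios were -3.49, -3.84 and -3.78 at E14, -3.48, -3.51 and -3.53 at E18, -2.62 and -1.79 at P5, and -1.91, -1.82 and -2.36 at P56. Embryonic and postnatal arrays did not overlap, while E14 overlapped E18 and P5 overlapped P56. The difference of E18 from E14 was 0.20 ± 0.20 (adjusted p = 0.45), followed by a rise of 1.31 ± 0.22 to P5 (adjusted p = 0.0028). P56 differed from P5 by 0.17 ± 0.22 (adjusted p = 0.55), but the P5 arrays were 0.82 apart, and the sign of this difference turned with the array and the scaling used. It was -0.24 without P5 replicate 2 (adjusted p = 0.43), 0.59 without P5 replicate 3 (0.031) and -0.73 under median centring (0.033), and the first and second of these values rest on a lone P5 array. P56 was above E18 by 1.48 ± 0.20 (adjusted p = 4.2e-05). At P56 Fgf21 averaged 24.5% of the adult reference on this probe and 54.4% on its dimmer probe. P56 and the reference are both adult liver, and the P56 means of the other members ran from 33.4% (Cpt1a) to 130% (Acadl) on their main probes.

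**Figure D1:**
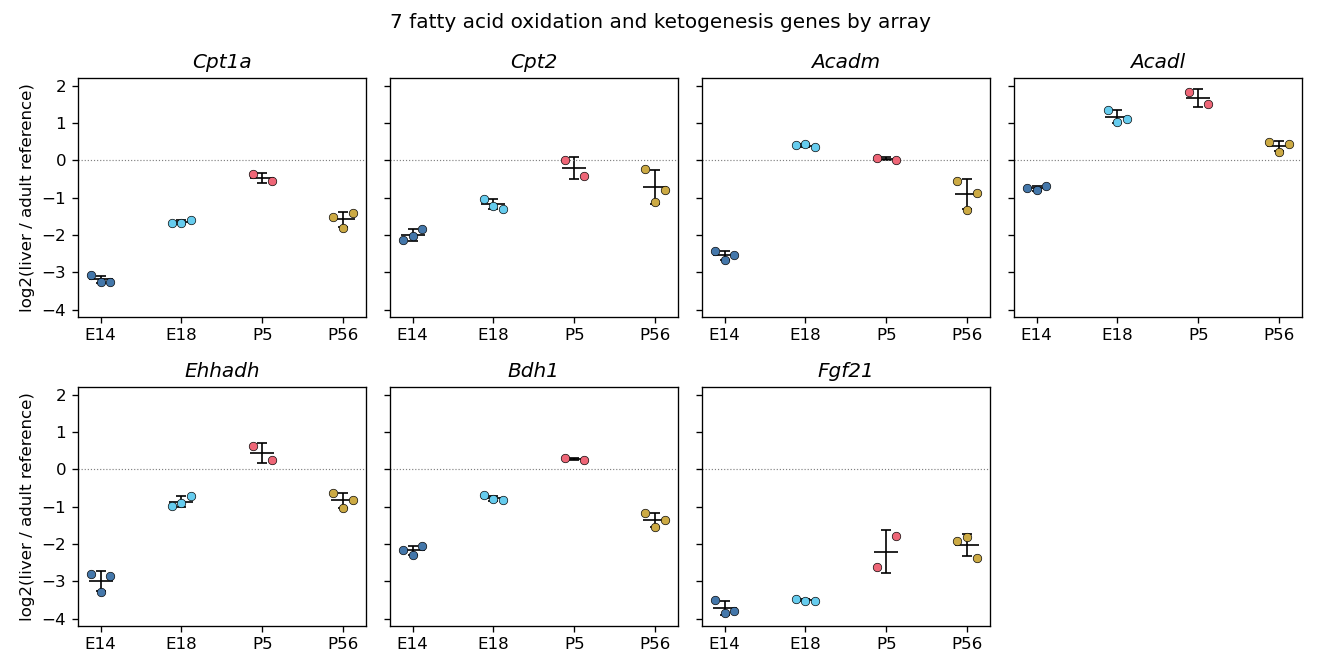
Log2(liver / adult reference) of the main probe of each of the 7 genes (y axis) at 4 stages (x axis). Each point is 1 array, bars are mean ± SD over 3 arrays (2 at P5), and the dotted line marks the reference. Cpt1a, Cpt2, Acadl, Ehhadh and Bdh1 have their highest mean at P5, Acadm at E18, and Fgf21 stays near -3.5 at both embryonic stages.

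Cpt1a, Bdh1 and Fgf21 were each measured by 2 probes, which showed the same order of changes in Bdh1 and differed in size in Cpt1a. The dimmer Cpt1a probe, on chromosome 19 at 3279435 to 3279494, gave -2.47, -2.77 and -2.32 at E14 and -2.31, -1.93 and -2.08 at E18 (log2 ratio), then -1.12 and -0.91 at P5 and -1.56, -1.39 and -1.45 at P56. Its rise from E14 to E18 was 0.41 ± 0.13 on the log2 scale (adjusted p = 0.024 over all probes), where the brighter probe rose by 1.54. The rise to P5 was close in both, at 1.09 ± 0.15 on the dimmer probe. From P5 to P56 the dimmer probe changed by -0.45 ± 0.15 on the log2 scale (adjusted p = 0.029 over all probes), against -1.11 on the brighter one. P56 was above E18 by 0.64 ± 0.13 on the dimmer probe (adjusted p = 0.0013), while the brighter one gave 0.07. The Cy3 signal of the dimmer probe varied by 0.90 on the log2 scale over the arrays and that of the brighter one by 0.17, and the part of this in the disagreement was not tested.

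The second Bdh1 probe, on chromosome 16 at 31132538 to 31132597, changed by 1.12, 0.59 and -0.98 on the log2 scale over the 3 successive steps, all past the test and each smaller than on the brighter probe. The second Fgf21 probe spans 615 bases of chromosome 7, from 41790404 to 41791018 (mm7, minus strand), for its 60 bases, so it crosses a splice junction. Its sequence is shown because the reading of this gene differs between the probes.
Fgf21 junction probe: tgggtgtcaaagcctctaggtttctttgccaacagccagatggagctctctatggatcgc
On this probe the log2 ratios were -1.35, -1.87 and -1.63 at E14, -1.68, -1.54 and -1.64 at E18, -1.64 and -0.59 at P5, and -0.77, -0.78 and -1.09 at P56. It was the dimmest of the 10 and was well above background on 2 of the 3 P56 arrays. P5 replicate 2 lay within the embryonic range here, and the difference of P5 from E18 was 0.51 ± 0.25 (adjusted p = 0.21), whereas P56 was above E18 by 0.74 ± 0.22 (adjusted p = 0.011). Both Fgf21 probes thus placed P56 above E18, and the P5 call rested on the brighter probe.

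**Figure D2:**
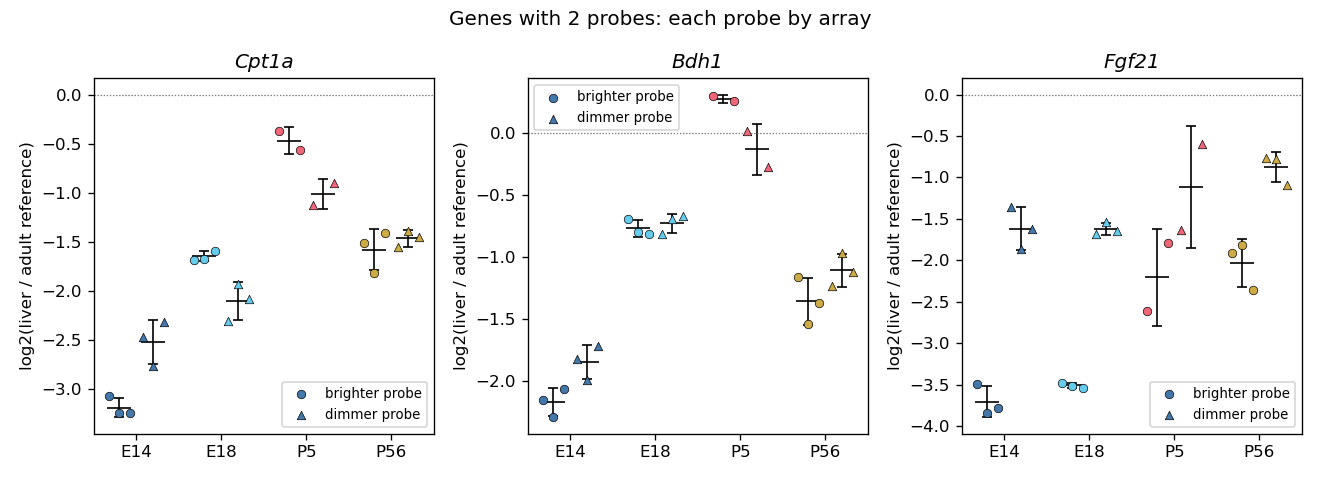
Log2(liver / adult reference) on each array (y axis) by stage (x axis) for the 3 genes with 2 probes. Circles are the brighter probe, triangles the dimmer one, and bars mean ± SD over arrays. The dimmer Cpt1a probe shows a smaller step from E14 to E18, and the 2 P5 arrays lie far apart on both Fgf21 probes.

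The counts of members were then set against all genes tested. Over the first step, from E14 to E18, 24.5% of the 16702 genes were called higher and 22.9% lower, and among the members 6 of 7 were higher and none lower, with a median log2 fold change of 1.54 against -0.01 over all genes. Over the next step, from E18 to P5, 7.31% of all genes were called higher and 6.38% lower, against 6 and 0 of the 7 members, whose median was 1.05 on the log2 scale. Over the last step, from P5 to P56, 21% of genes were called higher and 24.7% lower, against 0 and 5 members, with a median of -1.11.

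Comparing P56 with E18 directly, 31.3% of genes were called higher and 33.5% lower. Acadm fell by 1.31, Acadl by 0.78 and Bdh1 by 0.59 on the log2 scale from late fetal to adult liver, and Fgf21 was the one member called higher. Cpt1a differed by 0.07 ± 0.11, Ehhadh by 0.03 ± 0.16 and Cpt2 by 0.47 ± 0.20 (log2 scale, adjusted p = 0.62, 0.86 and 0.053). These 3 values depended on the processing. With median centring of the arrays and no loess, Cpt1a and Ehhadh were called lower at P56, at -0.57 and -0.67, where the median of all genes also moved to -0.42, and with the mean over both probes Cpt1a was called higher at 0.35. Cpt2 passed the test without P56 replicate 2, the array with the fewest detected spots, at 0.66 (adjusted p = 0.0085).

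The members were chosen with earlier results of these data known, and a peak at P5 was not among the planned results. Its shares are therefore a description and no test. Being higher at P5 than at both neighbours was met by 1.29% of all genes and by 4 of the 7 members. This count was 3 without P5 replicate 2 and 5 without P5 replicate 3, each with P5 as a lone array, and 3 to 5 without 1 array of another stage. The stages were scanned in partly separate runs. Within the scan that held all E14 arrays and E18 replicate 1, the E18 minus E14 differences were 0.98 to 2.94 on the log2 scale for the 6 enzymes and 0.23 for Fgf21. Within the scan that held P5 replicate 3 and all P56 arrays, the P56 minus P5 differences were -1.61 to -0.30 for the enzymes and -0.24 for Fgf21. No scan held both E18 and P5 arrays, so stage and scan cannot be told apart in that step. If the E18 arrays hold isolated cells, stage and cell preparation cannot be told apart there either.

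**Figure D3:**
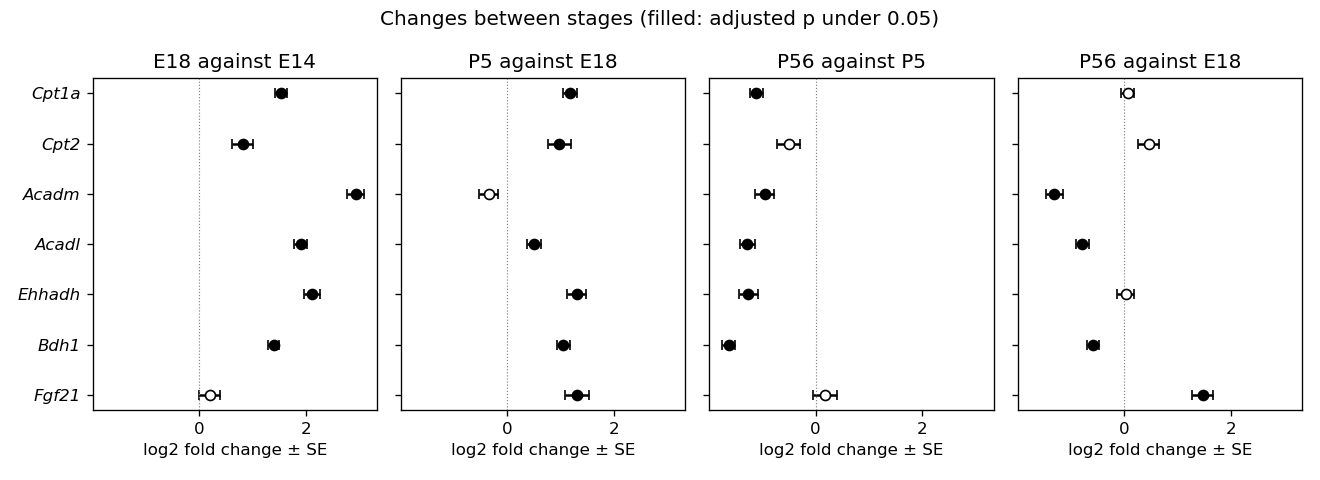
Log2 fold change ± SE from limma (x axis) of each gene (y axis) in 4 comparisons of stages. Filled points passed an adjusted p of 0.05. In the first panels 6 of 7 genes lie to the right with filled points, and in the panel of P56 against P5 5 of 7 lie to the left.

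The other genes of the pathway were taken from 6 lists by role, which hold 91 further symbols, of which 88 were tested. From E14 to E18, 67 of these rose and 3 fell, with a median log2 fold change of 1.13. From E18 to P5, 36 rose and 6 fell, and from P5 to P56, 24 rose and 32 fell. Comparing P56 with E18, 43 were higher and 22 lower. Of all genes tested, 24.5% were called higher and 22.9% lower in the first step, and 7.31% and 6.38% in the second. In the third step the shares were 21% and 24.7%, and for P56 against E18 they were 31.3% and 33.5%. The counts of single lists and of cell markers below stand beside these shares. The peak at P5 defined above was met by 12 of the 88, or 13.6%. Among these were Acadvl, Cd36, Cidec, Cyp4a10, Cyp4a12, Cyp4a14, Ech1, Etfdh, Hadhsc, Ppargc1a and Slc27a2.

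In uptake and activation, 11 of 13 tested genes rose from E14 to E18 and none fell. Acsl1, which couples long-chain fatty acids to coenzyme A, rose by 4.29 on the log2 scale, and Fabp1, the fatty acid binding protein of liver, by 4.05. Up to P5, 5 rose and 2 fell: the acyl-CoA synthetases of bile acids and very long chains Slc27a5 and Slc27a2 rose by 1.22 and 1.20, whereas Acsl3 and Acsl5 fell by 1.00 and 0.78 (log2 scale). After P5 the list divided, with 6 genes higher and 5 lower, 11 calls that became 7 without P5 replicate 2. Fabp1 and the acyl-CoA binding protein Dbi rose by 1.91 and 1.60 on the log2 scale, while Acsl1 fell by 1.51 and the fatty acid transporter Cd36 by 1.095. Against E18, Fabp1 was 2.23 and Slc27a5 1.46 higher at P56, and Acsl1 and Acsl5 had fallen by 1.68 and 1.35, with 7 genes of the list higher and 4 lower.

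The carnitine shuttle list, which includes Cpt1a and Cpt2, had 5 of 7 genes higher at E18 than at E14, none lower, and again 5 higher at P5 than at E18, a count that was 3 without E18 replicate 2, E18 replicate 3 or P5 replicate 2. The carnitine-acylcarnitine carrier Slc25a20 rose by 0.65 and then 0.71 on the log2 scale, and Cpt1b, the muscle form of the transferase, by 0.89 in the first step. Crot, the peroxisomal octanoyltransferase, rose by 1.12 from E18 to P5. By P56 none rose and 3 fell, among them the carnitine acetyltransferase Crat by 1.01 and Cpt1b by 0.63 on the log2 scale. Against E18, Crot and Slc25a20 were 1.24 and 0.69 higher at P56, while Crat and Cpt1b had fallen by 0.83 and 0.76, with 3 genes higher and 2 lower.

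Mitochondrial beta-oxidation, with Acadm and Acadl in the list, had 17 of 20 genes higher at E18 than at E14 and none lower. The thiolase Acaa2 rose by 3.01 and the very-long-chain dehydrogenase Acadvl by 2.05 on the log2 scale. Between E18 and P5, 8 rose and none fell, with the enoyl-CoA isomerase named Peci on the array at 1.33 and Etfdh, which passes electrons on to ubiquinone, at 1.02. The count of 8 was 2 to 6 with any 1 array left out, lowest without E18 replicate 3. Between P5 and P56, 9 fell and 2 rose, 11 calls in all, of which 7 were made without P5 replicate 2. Hadhb, the thiolase subunit of the trifunctional protein, fell by 1.41 and Acaa2 by 0.84 on the log2 scale, and Acad9 and the enoyl-CoA hydratase Echs1 rose by 0.51 and 0.47. Against E18, Peci and Acad9 were 1.39 and 0.92 higher at P56, and Hadhb and Acaa2 had fallen by 1.25 and 1.02, with 8 genes higher and 5 lower.

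Peroxisomal beta-oxidation had 16 of 20 genes, Ehhadh among them, higher at E18 than at E14 and none lower. Acox2, the oxidase of branched chains, rose by 2.86 on the log2 scale. A further step to P5 had 10 genes higher and none lower, led by Phyh and Amacr of branched-chain breakdown at 1.54 and 1.41. That count was 5 without E18 replicate 3, 6 without E18 replicate 2 or P5 replicate 3, and at most 9 with 1 array left out. Of the 20 genes of the list, 8 were higher and 4 lower in adult liver than at P5, and these 12 calls became 7 without P5 replicate 2. Pex11a, which acts in peroxisome division, rose by 1.51 and Phyh by 1.07 on the log2 scale, while the transporter Abcd2 fell by 0.69. Against E18, Phyh and the thioesterase Acot4 were 2.61 and 1.89 higher at P56, and Abcd2 had fallen by 1.04, with 12 genes higher and 2 lower.

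In the list of ketone body synthesis and use, to which Bdh1 belongs, 6 of 9 genes rose from E14 to E18 and 1 fell. The gene that fell was Oxct1, by 0.50 on the log2 scale, which encodes the enzyme that organs outside the liver use to burn ketone bodies. It fell by another 0.78 to P5, and from E18 to P56 it fell by 2.07. Acat1, the thiolase that makes acetoacetyl-CoA, rose by 2.95 and the transporter Slc16a7 by 2.00 from E14 to E18.

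At P5, 5 genes of the ketone list were higher than at E18 and 1 was lower, and Slc16a7 rose by 1.02 on the log2 scale. These 6 calls became 2 without P5 replicate 3, 3 without E18 replicate 3 and at most 5 with 1 array left out. The step to P56 had 6 falls and 1 rise. The monocarboxylate transporters Slc16a1 and Slc16a6 fell by 2.39 and 1.67 on the log2 scale. Bdh2, a cytosolic short-chain dehydrogenase, rose by 3.11, against the direction of Bdh1. Against E18, Bdh2 was 3.89 higher at P56 and Slc16a1 had fallen by 2.54, with 3 genes higher and 5 lower.

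Regulators and PPAR-α target genes, a list that includes Fgf21, had 18 of 26 genes higher and 2 lower at E18 than at E14. The fatty acid omega-hydroxylase Cyp4a14 rose by 4.85 and Lpin1 by 3.78 on the log2 scale, and the 2 that fell, Fabp3 and the deacetylase Sirt1, did so by 0.29 and 0.26. Next, 9 rose and 3 fell from E18 to P5. Cyp4a14 and Cyp4a10 rose by 4.23 and 2.38 on the log2 scale, whereas Lpin1 fell by 2.24 and Acacb, which makes the malonyl-CoA that inhibits CPT1, by 1.61. On the way from P5 to P56, 7 rose and 10 fell, with rises of 3.04 in Acacb and 1.92 in Lpin1 on the log2 scale. Cyp4a14 fell by 3.67 and the kinase gene Pdk4 by 2.18 in the same step.

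Against E18, Sirt3, a mitochondrial deacetylase, and the malonyl-CoA decarboxylase Mlycd were 1.82 and 1.66 higher at P56 on the log2 scale, and Pdk4 and Ucp2 had fallen by 1.68 and 1.56, with 11 genes of the list higher and 7 lower. Ppara had log2 ratios of -2.38, -2.70 and -2.56 at E14, -0.66, -0.51 and -0.39 at E18, -0.62 and -0.81 at P5, and -1.001, -1.13 and -1.04 at P56. It rose by 2.03 ± 0.11 from E14 to E18 (adjusted p = 4.9e-08), differed by -0.19 ± 0.12 from E18 to P5 (adjusted p = 0.34) and fell by 0.35 on the log2 scale to P56 (SE 0.12, adjusted p = 0.037). Rxra rose by 1.42 ± 0.10 from E14 to E18 (adjusted p = 6.3e-07) and then differed by 0.12 ± 0.12 and -0.07 ± 0.12 in the next 2 steps (adjusted p = 0.55 and 0.63). Its log2 ratios lay between -2.73 and -2.60 at E14 and between -1.43 and -1.07 on all 8 later arrays. In the step from E18 to P5 neither receptor gene passed the test. These are RNA levels, and the part of either receptor in the members' changes was not tested.

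**Figure D4:**
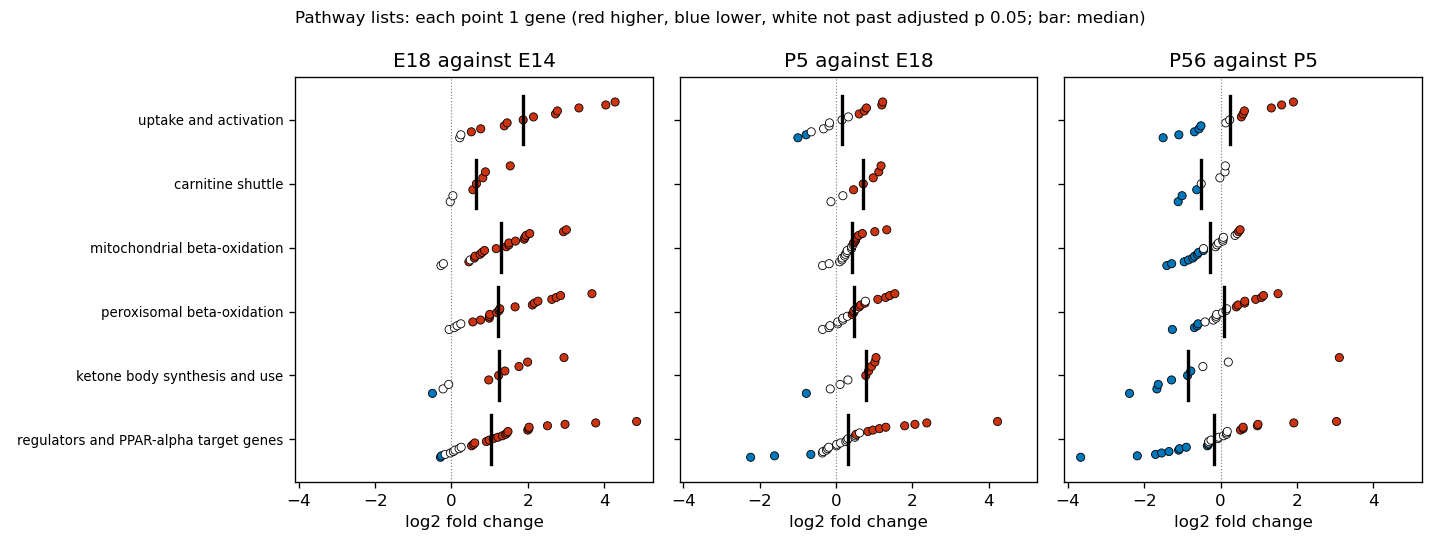
Log2 fold change (x axis) of every tested gene of 6 pathway lists (y axis) in 3 successive comparisons. Each point is 1 gene, red points passed the test as higher, blue as lower, white did not pass, and black bars are list medians. The lists lie mostly to the right of 0 from E14 to E18, with medians of 0.65 to 1.88, and spread to both sides from P5 to P56.

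Markers of hepatocytes and of other cell types moved with the stages too. All 9 tested hepatocyte markers of 10 listed rose from E14 to E18, by a median of 3.18 on the log2 scale, and their median log2 ratio went from between -2.81 and -2.65 at E14 to between 0.44 and 0.56 at E18. The log2 fold changes of the 7 members were all below that median. From E18 to P5 none of the 9 rose and 3 fell, among them albumin (Alb1 on the array) by 1.04, with a median of -0.32. From P5 to P56, 3 rose and 4 fell.

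The 12 erythroid markers kept a median log2 ratio of 2.98 to 3.27 on the embryonic arrays and 2.12 to 2.81 at P5. At P56 it was -0.05 to -0.01, and all 12 fell from P5, of which Hbb-b1, a globin, fell by 3.09 on the log2 scale. The summed Cy5 signal of the erythroid list was 182700 to 208600 at E14, 164400 to 180800 at E18, 126900 to 157100 at P5 and 24700 to 39130 at P56, and that of the hepatocyte list was 84260 to 95810, 324900 to 359100, 220800 to 279400 and 182900 to 240300. The sums are linear signals after normalization between arrays. At least 8 of the 9 hepatocyte markers on the array were well above background on every array. All 12 erythroid markers were so on every array up to P5, but only 5 to 7 of the 12 at P56. All 12 cell cycle genes fell from P5 to P56, by a median of 3.10 on the log2 scale. In bulk RNA fewer hepatocytes and less RNA per hepatocyte cannot be told apart, and the part of cell makeup in the members' changes was not tested.

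Of the remaining lists, all 10 macrophage genes and 8 of 10 other haematopoietic genes rose from E14 to E18, and none of either list fell. From E18 to P5, where 6 members rose, 6 of the 10 haematopoietic genes fell and none rose, while 2 macrophage genes rose and none fell. From P5 to P56, 7 of the 10 macrophage and 9 of the 10 haematopoietic genes fell. The endothelial and biliary lists had 5 of 9 and 4 of 6 genes higher at E18 than at E14 and none lower, whereas the stellate and fibroblast list had 3 of 10 higher and 3 lower. At P5 against E18, 2 endothelial and 2 stellate or fibroblast genes were higher, none of them was lower, and no biliary gene passed. At P56 against P5, 6 endothelial, 2 biliary and 6 stellate or fibroblast genes were lower, and 1, 0 and 1 were higher. Of 9 pancreas acinar genes 8 rose from E14 to E18, 2 rose from E18 to P5 and 6 fell from P5 to P56. Their median log2 ratio was -0.57 on P5 replicate 2 and -1.78 on P5 replicate 3, against -2.28 to -1.91 at E18, and its part in the members' rise to P5 was not tested. Pck1, the 1 adipose list gene tested, which liver also expresses, rose by 4.74 on the log2 scale from E18 to P5. Of 3 muscle genes tested, none passed in either postnatal step.

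**Figure D5:**
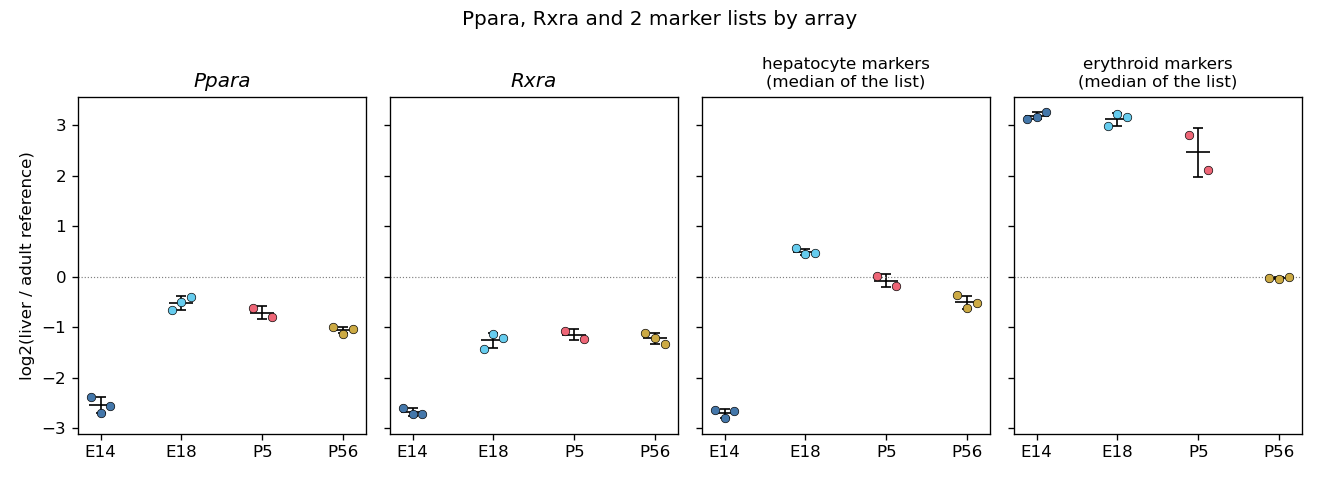
Log2(liver / adult reference) on each array (y axis) by stage (x axis) for Ppara and Rxra and for the median of the hepatocyte and erythroid marker lists. Points are arrays and bars mean ± SD over them. Ppara and the hepatocyte median are highest at E18, and the erythroid median stays above 2 until P5.

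Among the members themselves, the 6 enzymes correlated at r = 0.70 (Cpt2 with Acadm) to 0.99 (Cpt1a with Ehhadh) over the 11 arrays, and Fgf21 with them at 0.28 (Acadm) to 0.74 (Cpt2). These values describe 4 stages and share the reference, so they carry no test. The 3 genes most like Cpt1a over the arrays were Agxt (r = 0.993), Ehhadh (0.992) and Agt (0.992). Those most like Acadm were Apoa1 (0.998), F11 (0.997) and Plg (0.993), all genes of proteins that the liver secretes. Apoa1 is also among the hepatocyte markers used above. For Ehhadh they were Agxt (0.993), Cpt1a (0.992) and Trfr2 (0.991). Acadl was followed by Nnt (0.987), Adora1 (0.985) and Col18a1 (0.985), and Bdh1 by AV121721 (0.986), Igfbp2 (0.986) and Clpx (0.983). Cpt2 had 1300010F03Rik (0.969), 1700108L22Rik (0.967) and Cyp4a12 (0.965), and Fgf21 had Abcg8 (0.981), 2410022M11Rik (0.980) and A730011L01Rik (0.979).

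The 250 bases before the annotated start were read from RefSeq (GRCm38.p6) for 8 start sites of the 7 genes, Bdh1 having 2. The stretches of Acadm, which rose most from E14 to E18, of Ehhadh, which fell again after P5, and of Fgf21, which did not pass in the first step, are shown on the strand of the gene. Capitals mark matches to the motifs listed next, on either strand.
Acadm, chr3:153944644-153944893, minus strand: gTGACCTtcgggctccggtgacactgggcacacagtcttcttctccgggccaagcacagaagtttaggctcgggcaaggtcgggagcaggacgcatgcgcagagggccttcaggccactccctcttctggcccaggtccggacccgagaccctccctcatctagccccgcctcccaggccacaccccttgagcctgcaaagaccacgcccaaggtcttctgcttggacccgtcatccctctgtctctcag
Ehhadh, chr16:21787835-21788084, minus strand: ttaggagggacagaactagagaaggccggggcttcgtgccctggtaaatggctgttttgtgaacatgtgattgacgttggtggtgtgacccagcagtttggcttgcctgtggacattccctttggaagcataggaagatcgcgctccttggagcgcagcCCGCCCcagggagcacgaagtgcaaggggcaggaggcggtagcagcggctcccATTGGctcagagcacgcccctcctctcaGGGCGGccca
Fgf21, chr7:45615491-45615740, minus strand: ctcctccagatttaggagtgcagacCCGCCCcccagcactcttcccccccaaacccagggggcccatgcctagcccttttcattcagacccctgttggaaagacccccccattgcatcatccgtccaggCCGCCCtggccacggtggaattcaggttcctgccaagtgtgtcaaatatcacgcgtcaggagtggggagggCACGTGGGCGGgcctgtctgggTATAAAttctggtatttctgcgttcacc
The nuclear receptor hexamer AGGTCA was found before Acadm and before Cpt1a, that is at 2 of the 8 start sites and at 14% of 32851 RefSeq start sites. Its direct repeat with 1 base between, AGGTCANAGGTCA, the form that PPAR-α with RXR-α binds, was searched with up to 2 mismatches and was found at 0 of the 8 and at 3.24% of all. The TATA box TATAAA was found before Fgf21 alone, 28 to 23 bases from the start, and at 12.4% of all start sites. Fgf21 was also the one with the E-box CACGTG (6.02% of all), which overlaps a GC box by 1 base. The GC box GGGCGG was found at 5 of the 8 (32.7% of all) and the CCAAT box CCAAT at 2 of the 8, before Cpt1a and Ehhadh (33.8% of all). These matches describe the letters of these windows and were not tested for binding.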

How the data were processed

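The authors deposited, for each array, the intensity of every spot in both channels with local background and quality marks, as written by Feature Extraction 9.5.1.1 and not normalized between arrays. They also deposited log2 ratios per gene in a table of 28050 genes, made with limma, whose version is not given in the sources used here. That table was used as an alternative only (Pearson's r with the values here was 0.815 to 0.931 per array).

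From the intensities, the background of the mean signals was removed by normexp (offset 50) and log ratios were normalized by loess array by array. Spots marked as outliers, 177 to 356 on an array, were not used. Probes had to exceed the Cy5 background clearly on every array of 1 stage or more and to lack a value on no more than 1 array of any stage. The brightest probe stood for its gene, which left 16702 genes. Stages were compared in 1 limma 3.58.1 fit (lmFit, eBayes, R 4.3.3) over all 11 arrays with no covariate, with Benjamini-Hochberg adjustment over all genes and a threshold of 0.05. Single probes were fitted together in the same way. Figures used matplotlib 3.10.9 in Python 3.11.15.

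The members, the pathway lists and the marker lists were chosen with earlier results of these data known. The text names all 7 members and every probe of them. From each of the 6 pathway lists it names the 2 largest rises and falls per comparison among called genes whose arrays did not overlap, with Ppara and Rxra in any case and the 3 genes most correlated with each member. Some genes that this rule takes are not reported here. The peak at P5 was not among the planned results, and the genes sharing it were named after their values were seen. Symbols are those of the array design and probe coordinates those of the files (mm7). RefSeq promoters are on GRCm38.p6.

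The replicate numbers were checked for pairing by the deviations of same-numbered arrays from their stage means. The correlation of these deviations was -0.30 to 0.19 over 15 pairs, which gave no sign of pairing. With 2 or 3 arrays a stage the deviations are not independent, so the check cannot exclude pairing, and the arrays were compared as unpaired. Alternatives were other background corrections and normalizations, other filters, Cy5 alone, other choices of probe, the authors' table, replicate and scan as blocks, the methods' t-test and each array left out.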

Additional observations from a re-analysis of the deposited data

How the results depend on the processing

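For E18 against E14, the count of 6 members ranged from 5 to 6 over the alternatives run and the direction of every member was kept in all of them. With the methods' t-test after Benjamini-Hochberg adjustment, 0 members passed for P5 against E18 and 0 for P56 against P5, where 5 and 0 were higher and 1 and 5 lower at its unadjusted threshold, and 0 members then met the peak at P5. That test called 1 of the other pathway genes in each of these 2 comparisons. By list it called 0 genes of uptake and activation, the carnitine shuttle, mitochondrial and peroxisomal beta-oxidation in either comparison, 0 and 1 of ketone body synthesis and use, and 1 and 0 of the regulators and PPAR-α target genes. It estimates the spread of each gene from the 5 arrays compared. For P5 against E18, median centring called 3 genes of the carnitine shuttle, 4 of mitochondrial and 6 of peroxisomal beta-oxidation. Cy5 alone called 5 mitochondrial and 6 peroxisomal genes there, and 3 carnitine shuttle genes for E18 against E14. The authors' table called 21 other pathway genes for P5 against E18, with 3, 2 and 3 genes in the carnitine, mitochondrial and peroxisomal lists, and the scan as a random block (correlation 0.18) called 4 mitochondrial genes. For P56 against P5, median centring called all 7 carnitine shuttle genes, and the authors' table and the fit to these stages alone each called 7 mitochondrial genes. The scan as a fixed block called 34 other pathway genes, with 7 of uptake and activation, 4 mitochondrial and 7 peroxisomal. P5 replicate 2 was alone in its scan, so this fixed block compares P56 with P5 replicate 3 only, as leaving out P5 replicate 2 does. For E18 against E14 the fixed block rests on E18 replicate 1, the one E18 array scanned with E14. The causes were not tested.

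Without 1 of the 2 P5 arrays the spread came from the other stages. The counts of members and genes called in this paragraph add rises and falls together. Leaving out 1 array gave 4 to 6 members for P5 against E18, 5 to 7 for P56 against P5 and 4 to 5 for P56 against E18. Other pathway genes called were then 27 (without E18 replicate 3) to 35 for P5 against E18 and 37 (without P5 replicate 2) to 60 for P56 against P5. For P5 against E18 the lists gave 3 to 4 carnitine shuttle, 2 to 6 mitochondrial, 5 to 9 peroxisomal and 2 to 5 ketone body genes. For P56 against P5 they gave 7 to 12 genes of uptake and activation, 7 to 13 mitochondrial and 7 to 15 peroxisomal. The sign of the log2 difference turned in few results. Fgf21 for P56 against P5 was -0.73 under median centring, -0.24 with the scan as a fixed block and, with 1 array left out, -0.24 (without P5 replicate 2) to 0.59 (without P5 replicate 3). For P56 against E18, Cpt1a was -0.57 under median centring and -0.018 (without P56 replicate 3) to 0.19 (without P56 replicate 2) with 1 array left out. Ehhadh was -0.67 under median centring and -0.062 (without P56 replicate 1) to 0.14 (without P56 replicate 2), and -0.025 without E18 replicate 1. Median centring moved the median of all genes to -0.47 for P56 against P5, with 6.87% of its calls higher against 46% with loess, and to -0.42 for P56 against E18, with 15% higher against 48.3%. Over all genes, calls ranged from 57 (the t-test) to 3767 (without P5 replicate 2) for P5 against E18, where the reported count is 2286.

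With the replicate block 6, 6, 5 and 4 members were called in the 4 comparisons, as without it, and no member's call changed. The slide could not be used as a block, since its entries in the file headers conflict between scans, and the scan as a fixed block could not be fitted for P5 or P56 against E18. Fgf21 was the member closest to background, and the 2 arrays at P5 limit each comparison with that stage.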
